A study of Homo sapiens with 9 samples.

Results

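C/D box small nucleolar RNAs (snoRNAs) are short nuclear RNAs that carry the sequence boxes C and D. Their members were taken as every gene whose RefSeq symbol begins with SNORD followed by a digit and whose entry has a noncoding accession, counting each gene once by its most-read entry. This gave 296 of the 26625 genes in the count tables. The choice used names and no measured value beyond that pick of an entry. Their annotated length was 33 to 237 nt, with a median of 81.5 nt.

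A C/D box snoRNA is bound by SNU13, NOP56, NOP58 and the methyltransferase fibrillarin. Most of these particles pair with ribosomal RNA through a guide stretch beside box D and place a 2′-O-methyl group on it, and a few, among them U3, U8, U14 and U22, act in the cleavage or folding of the ribosomal RNA precursor. In human cells most are cut out of the introns of host genes, many of which encode ribosomal proteins or nucleolar factors, while U3 and U13 come from genes of their own. A mature C/D box snoRNA has no long poly(A) tail. Short A tails can be added to its precursors and to faulty copies, and are trimmed or lead to decay.

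The libraries were made by CLT-seq, in which total RNA is copied from an oligo(dT) primer that carries an adaptor. Both lines are human and labelled wild type, HEK293T derived from embryonic kidney and A549 from a lung carcinoma, and both were grown in medium with serum. The unanchored primers end in 12, 18 or 30 T (T12, T18, T30), and the anchored primers carry 18 T followed by a base other than T (T18V), by that base and 1 further base of any kind (T18VN), or by that base and 2 further bases (T18VNN). Gene counts were analysed for 7 of 9 libraries, 1 for each of the 6 primers in HEK293T and 1 for T12 in A549, so no primer had a replicate, and the p-values below measure the spread between the 3 primers of a class.

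Library totals were 7491993 to 25578543 reads. Gene reads, the counts summed over 1 entry per gene, were 1498171 (A549 T12) to 5200799 (HEK293T T18). A read where genes overlap can enter this sum for more than 1 gene. CPM below means counts scaled to a common total of these gene reads. A level of 3 reads, taken as the detection floor, was 0.577 to 1.35 CPM in HEK293T and 2.00 CPM in A549. All 5 A549 markers (AKR1B10, ALDH1A1, TGFBI, NQO1, KRT7) were higher in A549 than in HEK293T with T12, and all 4 HEK293T markers (NEFM, LIN28B, CDKN2A, AMOT) were lower. Both lists had been chosen with earlier results of these data known.

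Sequences of some of the members described below are given 5′ to 3′ as GENCODE release 29 has them. Capitals mark the first match to TGATG, the core of box C, and the last match to CTGA, box D, both searched on the RNA strand only. The first set shows 3 copies of U3, among them 1 of the 2 members called higher with anchored primers. SNORD3B-2 has the same 217 bases as SNORD3B-1.
SNORD3A: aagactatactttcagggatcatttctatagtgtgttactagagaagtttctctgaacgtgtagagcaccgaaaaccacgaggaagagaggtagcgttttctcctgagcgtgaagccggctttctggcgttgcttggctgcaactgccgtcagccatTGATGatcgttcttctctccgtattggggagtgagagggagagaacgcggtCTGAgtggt
SNORD3B-1: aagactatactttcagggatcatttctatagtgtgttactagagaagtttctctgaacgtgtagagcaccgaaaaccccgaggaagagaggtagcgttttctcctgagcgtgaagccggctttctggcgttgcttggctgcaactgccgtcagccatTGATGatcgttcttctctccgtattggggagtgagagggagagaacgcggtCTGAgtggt
SNORD3C: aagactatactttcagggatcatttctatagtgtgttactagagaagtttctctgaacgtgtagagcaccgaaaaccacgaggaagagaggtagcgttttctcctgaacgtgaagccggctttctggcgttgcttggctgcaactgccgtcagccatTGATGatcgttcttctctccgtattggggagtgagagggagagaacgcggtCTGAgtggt

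The next set shows intron-encoded members that differed between libraries. SNORD16 was high with T12 alone, SNORD57 was high with the longest anchors and holds the run of 7 A, and SNORD36A and SNORD11 were read in HEK293T and had no read in A549. The A549 library was made with T12, and with that primer SNORD11 had 2 reads in HEK293T, under the floor.
SNORD16: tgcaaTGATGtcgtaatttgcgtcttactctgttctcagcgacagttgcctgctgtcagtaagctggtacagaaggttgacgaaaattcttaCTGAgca
SNORD57: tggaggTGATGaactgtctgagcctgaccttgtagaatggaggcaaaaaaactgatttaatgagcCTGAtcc
SNORD36A: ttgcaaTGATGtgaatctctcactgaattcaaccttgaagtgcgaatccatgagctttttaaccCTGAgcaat
SNORD11: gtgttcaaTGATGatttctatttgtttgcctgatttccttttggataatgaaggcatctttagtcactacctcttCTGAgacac

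The last set shows 2 snoRNAs of the imprinted chromosome 15 locus that had reads in A549 and none in HEK293T.
SNORD64: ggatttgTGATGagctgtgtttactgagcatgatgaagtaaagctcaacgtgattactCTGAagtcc
SNORD107: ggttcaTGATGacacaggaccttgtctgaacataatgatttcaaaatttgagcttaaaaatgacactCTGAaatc

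Sequences were matched for 226 of the 296 members, SNORD50A not among them. TGATG was found in 209 of them (92.5%) and CTGA in 222 (98.2%). SNORD3A and SNORD3B-1 differ by 1 substitution, A78C, counted from 1 at the 5′ end of SNORD3A. SNORD3A and SNORD3C differ by 1 substitution, G108A. Outside the repeated arrays described below, a run of 5 or more A stood in 8 of the 80 matched members with a read in any library (10%) and in 1 of the 35 without a read (2.86%). The median longest run was 3 A in both of these groups. SNORD57 had the longest run of A among the matched members with a read.

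Reads were concentrated on a few members. Of the 296 members, 178 had no read in any of the 7 libraries, 118 had at least 1 read, 77 reached 3 reads in some library and 24 reached 20. Only 11 had at least 3 reads in all 7 libraries. The members held 39769 reads in all, of which 76.6% lay on SNORD50A and SNORD13 and 92.5% on the 10 members with most reads.

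The share of gene reads on C/D box snoRNAs was 0.144% with T12 (95% Wilson interval 0.140 to 0.148%), 0.0790% with T18 (0.0766 to 0.0815%) and 0.0217% with T30 (0.0198 to 0.0237%). It was 0.276% with T18V (0.270 to 0.282%), 0.208% with T18VN (0.204 to 0.212%) and 0.272% with T18VNN (0.266 to 0.277%). The 3 anchored libraries thus lay above the 3 unanchored ones, at 0.252% ± 0.0381 against 0.0815% ± 0.0611 (SD, n = 3 primers each), a difference of 0.170 percentage points that was larger than either SD. A549 with T12 stood at 0.243% (0.235 to 0.251%), above HEK293T with the same primer. These intervals count reads, which carry no molecular identifier and so are not independent molecules; they hold no other error.

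The difference in share came from a few members. Without SNORD50A it was 0.0726 percentage points, and without SNORD50A, SNORD13 and the U3 genes it was 0.00883 percentage points, an alternative chosen after the data were seen. The other 289 members together stood at 240, 136 and 84.4 CPM with T12, T18 and T30, and at 107, 226 and 392 CPM with T18V, T18VN and T18VNN. The 2 classes overlapped in that remainder. Relative to the library total in place of gene reads, the classes stood at 0.0791% ± 0.0228 and 0.0145% ± 0.0112 (SD, n = 3 primers each), a difference of 0.0646 percentage points on that smaller scale.

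**Figure D1:**
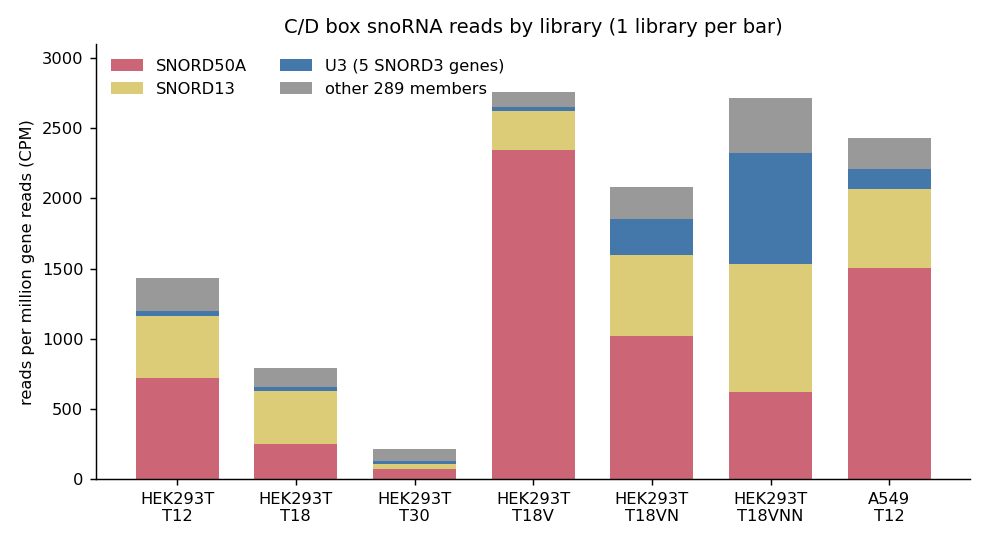
CPM of gene reads (vertical axis) on C/D box snoRNAs in each of the 7 libraries, 1 library per bar, split into SNORD50A, SNORD13, the 5 U3 genes and the other 289 members. The bar is lowest for HEK293T T30 at 217 CPM and highest for HEK293T T18V at 2760 CPM, where SNORD50A makes up 84.9%.

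The number of members with at least 3 reads was 31, 36 and 21 with T12, T18 and T30, 22, 42 and 51 with T18V, T18VN and T18VNN, and 25 in A549. Depth differs between these libraries. After drawing 1498171 gene reads from each, the expected number was 22.2, 20.5 and 16.4 for T12, T18 and T30, 18.4, 27.1 and 34.7 for T18V, T18VN and T18VNN, and 25 for A549. At equal depth T18VNN had the most members detected and T30 the fewest, and T18V, with the highest share of reads, had fewer than T12.

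SNORD50A had the most reads of all members. It guides methylation of the large ribosomal RNA, and its gene (NR_002743, 75 nt) lies at chr6:86387012-86387086 on the minus strand in hg19, in the host gene SNHG5, where annotated noncoding transcripts of SNHG5 run over it as exon. It had 2358, 1300 and 170 reads with T12, T18 and T30, 6586, 4560 and 2243 reads with T18V, T18VN and T18VNN, and 2251 reads in A549. In CPM these are 722, 250.0 and 76.7 for the unanchored primers, 2343, 1018 and 624 for the anchored ones and 1502 for A549. Among unanchored primers the level was lowest with the longest T run, and among anchored primers it was highest with the single anchor base. T18V stood 9.37-fold above T18. The primers differ by the anchor base alone, but neither had a replicate, so primer and library cannot be told apart. Whether the anchor base caused the difference was not tested.

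The anchored and unanchored levels of SNORD50A overlapped, because T18VNN lay under T12. Its anchored-minus-unanchored log2 fold change, 1.79 (SE 0.68), did not pass edgeR's quasi-likelihood test after Benjamini-Hochberg adjustment over all genes (adjusted p = 0.229). With no filter on low counts the adjusted p from edgeR was 0.0104, at a log2 fold change of 1.78. Without T18V the log2 fold change was 1.04, and without T12 it was 2.84.

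SNHG5, the noncoding host, was read less. Its counted transcript had 509, 1181 and 278 reads with T12, T18 and T30, 909, 1118 and 700 with T18V, T18VN and T18VNN, and 635 in A549. SNORD50A had more reads than this transcript in 6 of the 7 libraries, T30 being the other one. Per length, on the FPKM scale, SNORD50A exceeded SNHG5 by 4.13-fold (T30) to 49.0-fold (T18V). The log2 fold change of SNHG5 between the classes was 0.43 (adjusted p = 0.601, edgeR).

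SNORD13, which encodes U13, was second. U13 is an acetylation guide for the small ribosomal RNA and is transcribed from a gene of its own (NR_003041, 104 nt, chr8:33370993-33371096, plus strand, hg19). It had 1444, 1963 and 81 reads with T12, T18 and T30, 792, 2609 and 3266 reads with T18V, T18VN and T18VNN, and 849 in A549. In CPM these are 442, 377 and 36.6, then 282, 582 and 908, and 567 in A549. T30 was lowest by far and T18VNN highest, and T18V lay within the range of the unanchored primers. The classes overlapped, with a log2 fold change of 0.90 (SE 0.67) and an adjusted p of 0.587 by edgeR. Without T30 it was 0.37 and without T18VNN 0.41.

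The 2 leading members had opposite orders over the anchored primers. From T18V to T18VNN SNORD50A was 3.76-fold lower while SNORD13 was 3.22-fold higher. The ratio of SNORD50A reads to SNORD13 reads was 8.32 with T18V, 1.75 with T18VN and 0.687 with T18VNN. It was 1.63, 0.662 and 2.10 with T12, T18 and T30 and 2.65 in A549. With 1 library per primer, no spread can be set beside these orders.

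**Figure D2:**
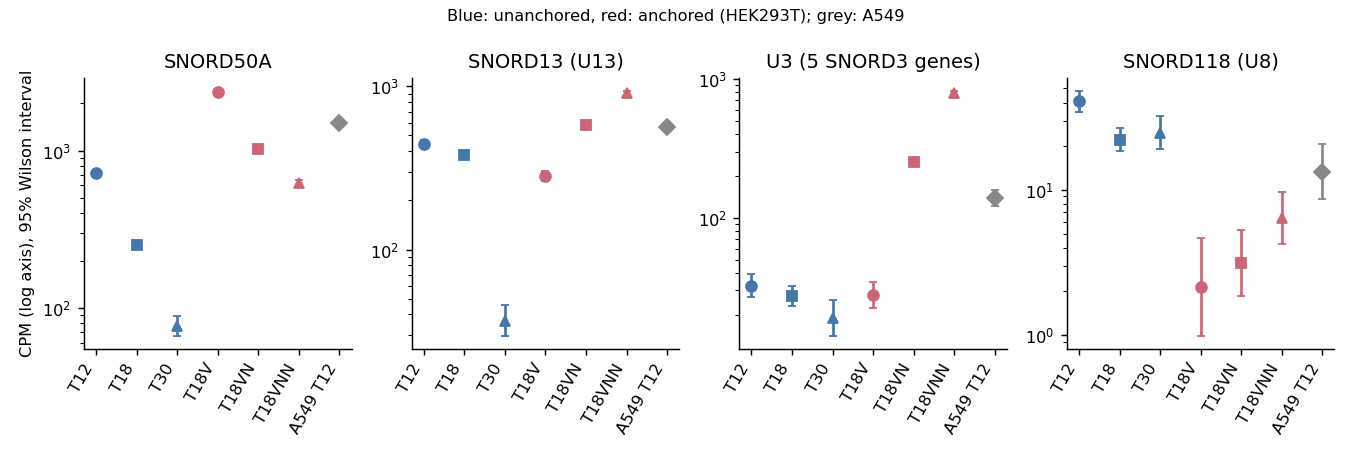
CPM (log axis) of SNORD50A, SNORD13, the 5 U3 genes together and SNORD118 in each library, with 95% Wilson intervals from counting alone. Blue marks unanchored and red anchored HEK293T libraries, and grey marks A549; in the SNORD118 panel all 3 red points lie below all 3 blue ones, and in the U3 panel T18V, at 27.7 CPM, lies among the blue points.

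U3, the most abundant C/D box snoRNA of the nucleolus and part of the small-subunit processome, is encoded by 5 genes in these tables, SNORD3A to SNORD3D with SNORD3B in 2 copies. Together they had 106, 142 and 42 reads with T12, T18 and T30, and 78, 1137 and 2853 reads with T18V, T18VN and T18VNN, with 207 in A549. In CPM these are 32.5, 27.3 and 19.0, then 27.7, 254 and 793, and 138 in A549. T18V stood at the unanchored level, 1.02-fold of T18. T18VN was 9.14-fold above T18V, and T18VNN 3.13-fold above T18VN. U3 made up 1.01% of C/D box snoRNA reads with T18V and 29.2% with T18VNN.

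Most of that difference lay on the SNORD3B copies. SNORD3B-1 (chr17:18965225-18965441, plus strand, hg19) had 14, 10 and 4 reads with T12, T18 and T30, and 10, 372 and 1214 with T18V, T18VN and T18VNN. SNORD3B-2 (chr17:18967233-18967449, minus strand) had 11, 27 and 5, then 14, 412 and 1159. Both passed the test, with log2 fold changes of 5.54 (SE 1.20) and 5.03 (SE 1.09), each at an adjusted p of 0.0494 by edgeR. For both, the classes overlapped, since T18V lay among the unanchored libraries. Without any 1 of the 5 libraries other than T18V, neither passed (adjusted p 0.0851 to 0.187, edgeR), and without T18VNN the log2 fold changes were 3.80 and 3.48.

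SNORD3A (chr17:19091329-19091545, plus strand), which is 1 base away in sequence, had 58, 69 and 28 reads with the unanchored primers and 38, 224 and 259 with T18V, T18VN and T18VNN. With a log2 fold change of 1.46 (SE 0.55) it did not pass (adjusted p = 0.224, edgeR). SNORD3C (chr17:19093342-19093558, minus strand) had 23, 35 and 5, then 16, 128 and 221 reads, with a log2 fold change of 2.38 (SE 0.76) that missed the threshold (adjusted p = 0.158, edgeR) and passed with DESeq2 (adjusted p = 0.0431) or with no filter on low counts (adjusted p = 0.0228, edgeR). Without T18VNN the log2 fold changes of SNORD3A and SNORD3C were 0.93 and 1.46. SNORD3D had 2 reads in all. The reads of both SNORD3B copies over those of SNORD3A gave ratios of 0.431, 0.536 and 0.321 with T12, T18 and T30, 0.632 with T18V, 3.5 with T18VN, 9.16 with T18VNN and 1.01 in A549. How reads with several matches were counted is not given in the sources used here, so the split between copies, and between SNORD3B-1 and SNORD3B-2 in particular, is uncertain.

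SNORD118, which encodes U8, was the member that fell with anchored primers. U8 acts in processing of the large ribosomal RNA. Its gene (136 nt, chr17:8076771-8076906, minus strand, hg19) overlaps a UTR of protein-coding transcripts of TMEM107, a gene of the ciliary transition zone. It had 133, 115 and 55 reads with T12, T18 and T30, and 6, 14 and 23 with T18V, T18VN and T18VNN. In CPM these are 40.7, 22.1 and 24.8 against 2.14, 3.12 and 6.40, and A549 with T12 stood at 13.4. All 3 anchored values lay below all 3 unanchored ones, at 3.89 ± 2.23 against 29.2 ± 10.1 CPM (SD, n = 3 primers each). SNORD118 passed the same edgeR test (adjusted p = 0.0265), and its log2 fold change was -3.06 (SE 0.56). It lost the threshold without T12, T30, T18V or T18VN (adjusted p 0.0602 to 0.0957, edgeR), at log2 fold changes of -3.15 to -2.78.

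SNORD118 lies within the span of the counted TMEM107 transcript, but whether an exon of that transcript covers it was not checked. TMEM107 had 217, 367 and 142 reads with T12, T18 and T30, and 85, 95 and 150 with T18V, T18VN and T18VNN. TMEM107 had a log2 fold change of -1.28 (SE 0.36) that did not pass (adjusted p = 0.109, edgeR). Had all reads of SNORD118 been counted for TMEM107 too, the rest of TMEM107 would stand at 25.7, 48.5 and 39.3 CPM with T12, T18 and T30. With T18V, T18VN and T18VNN it would be 28.1, 18.1 and 35.3 CPM, and the ranges overlap. Whether a read over SNORD118 came from U8 or from TMEM107 mRNA was not tested.

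Over the whole table, 10887 genes entered the test, and 85 (0.781%) were called higher and 62 (0.569%) lower with anchored primers, 1.35% in either direction. Of the 296 members, 18 (6.08%) passed the filter on low counts, against 40.9% of all genes, and 278 did not. The 2 members called higher were the SNORD3B copies and the 1 called lower was SNORD118. Only members with enough reads in at least some libraries could enter, so these counts say nothing of the other members. Of the 18, 14 had a positive log2 fold change and the median was 1.14, beside a median of -0.00 over all genes tested. The 18 are not independent, since they include U3 genes of near-identical sequence and members that share a host. Without T18VNN the median of the members tested was 0.33. All 3 anchored libraries lay above all 3 unanchored ones for 0 of the 18, beside 16.8% of all genes tested, and below for 1, beside 6.80%.

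**Figure D3:**
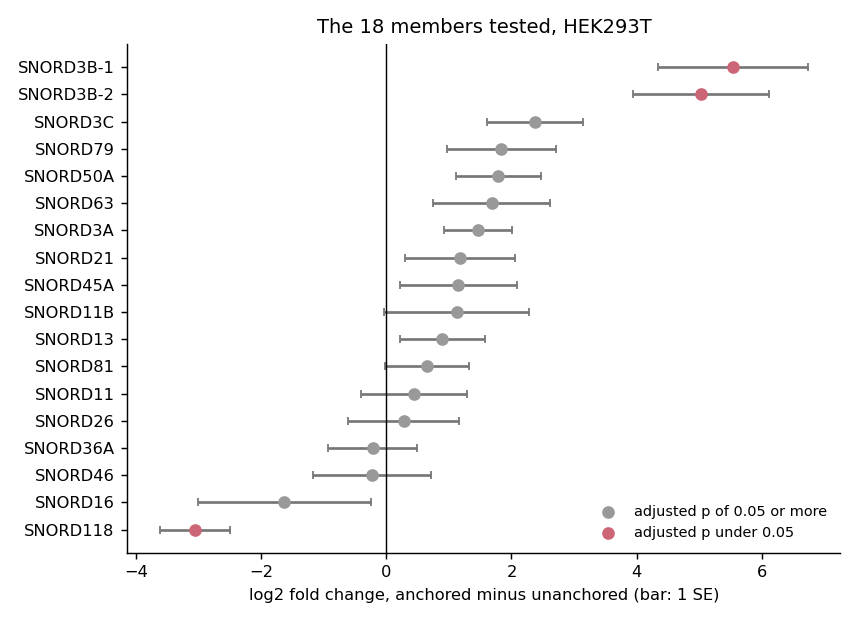
Log2 fold change (horizontal axis, anchored minus unanchored HEK293T libraries, 3 primers each) of the 18 members tested, with bars of 1 standard error. SNORD3B-1 and SNORD3B-2 at the top and SNORD118 at the bottom, in red, have an adjusted p under 0.05; 14 of the 18 points lie above 0.

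The members that act in ribosomal RNA processing from inside host genes were near or below the floor. SNORD14A and SNORD14B in RPS13 and SNORD14C, SNORD14D and SNORD14E in HSPA8 encode U14, and SNORD22 in SNHG1 encodes U22. SNORD14E had 9 reads over the 7 libraries, SNORD14A 4, SNORD14B 2, SNORD14C 1, and SNORD14D and SNORD22 had 0. At this depth a count of 0 in HEK293T T18, the deepest library, allows a level of up to 0.577 CPM.

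The members with other host genes differed in their full order of libraries but shared parts of it. Levels rose from T18V over T18VN to T18VNN for SNORD16, SNORD79, SNORD21, SNORD71 and SNORD57. They did not for SNORD11, SNORD46, SNORD45A, SNORD81 and SNORD36A. Among the unanchored primers T30 was lowest for all of these members but SNORD11 and SNORD57. SNORD16 (chr15:66795149-66795248, minus strand, hg19) lies in RPL4, which encodes a protein of the large ribosomal subunit. It had 149 reads with T12 in HEK293T and 146 with T12 in A549, against 3 with T18, 0 with T30, 3 with T18V, 30 with T18VN and 30 with T18VNN. The 2 T12 libraries, at 45.6 and 97.4 CPM, thus stood above every other library, the next being T18VNN at 8.34 CPM. T12 exceeded T18 by 79.1-fold in HEK293T, on 3 reads in T18 (0.196 to 1.70 CPM, 95% Wilson interval). RPL4 stood at 819 CPM with T12 and 620 CPM with T18. The log2 fold change between primer classes, -1.63 (adjusted p = 0.641, edgeR), turned to 3.62 without T12.

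SNORD11 (chr2:203157774-203157857, plus strand, hg19) lies in an intron of NOP58, which encodes a core protein of the C/D particle itself. It had 2 reads with T12, 79 with T18 and 34 with T30, then 21, 99 and 67 with T18V, T18VN and T18VNN, and 0 in A549. Both T12 libraries were thus low, the reverse of SNORD16. SNORD46 had 119, 69 and 3 reads with T12, T18 and T30, then 6, 144 and 50, and 30 in A549. T18V stood at 2.14 CPM there and T18VN at 32.1 CPM.

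SNORD45A (chr1:76253574-76253657, plus strand), in RABGGTB, a subunit of a Rab prenyltransferase, had 62, 54 and 0 reads with the unanchored primers, 46, 206 and 40 with the anchored ones and 9 in A549. SNORD21 (chr1:93302846-93302940, plus strand), in the ribosomal protein gene RPL5, had 33, 54 and 1, then 12, 75 and 119, and 6 in A549. For both, T30 was the lowest library. Neither passed the test, with log2 fold changes of 1.15 and 1.18 (adjusted p = 0.617 and 0.583, edgeR). SNORD45A had 0.31 without T18VN, and SNORD21 had 0.37 without T18VNN.

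GAS5, a noncoding growth-arrest gene, hosts 10 members, all with at least 1 read, but their totals ran from 1 to 531 reads. SNORD79 (chr1:173834488-173834568, minus strand) had 66, 28 and 6 reads with T12, T18 and T30, 27, 70 and 317 with T18V, T18VN and T18VNN, and 17 in A549. SNORD81 (chr1:173833313-173833355, minus strand) had 34, 78 and 19, then 79, 17 and 103, and 4 in A549. T18VN was thus the lowest HEK293T library for SNORD81 at 3.79 CPM and the third highest for SNORD79 at 15.6 CPM, although both are cut from introns of 1 host. GAS5 itself had a log2 fold change of 0.73 (adjusted p = 0.280, edgeR), and SNORD79 and SNORD81 had 1.84 and 0.65 (adjusted p = 0.337 and 0.717). Without T18VNN they had 0.24 and 0.30.

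SNORD36A (chr9:136217311-136217382, plus strand), in the ribosomal protein gene RPL7A, had the narrowest range of the members tested, with 29, 28 and 9 reads, then 17, 21 and 25, or 4.06 to 8.88 CPM over the 6 HEK293T libraries. Its host was read at 4881 to 8251 CPM. Between classes the log2 fold change was close to 0, at -0.22 (SE 0.71), with an adjusted p of 0.927 by edgeR. SNORD71, in an intron of the adaptor gene AP1G1, had 27, 3 and 1, then 1, 8 and 21 reads.

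SNORD57, in NOP56, another gene for a core C/D protein, is named after its values were seen. It had 7, 3 and 4 reads with T12, T18 and T30 and 2, 50 and 165 with T18V, T18VN and T18VNN, the same order over anchored primers as U3. It did not pass the filter on low counts of the edgeR test. DESeq2 called it higher (log2 fold change 3.49, adjusted p = 0.0271), as did edgeR with no filter (3.52, adjusted p = 0.0154).

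**Figure D4:**
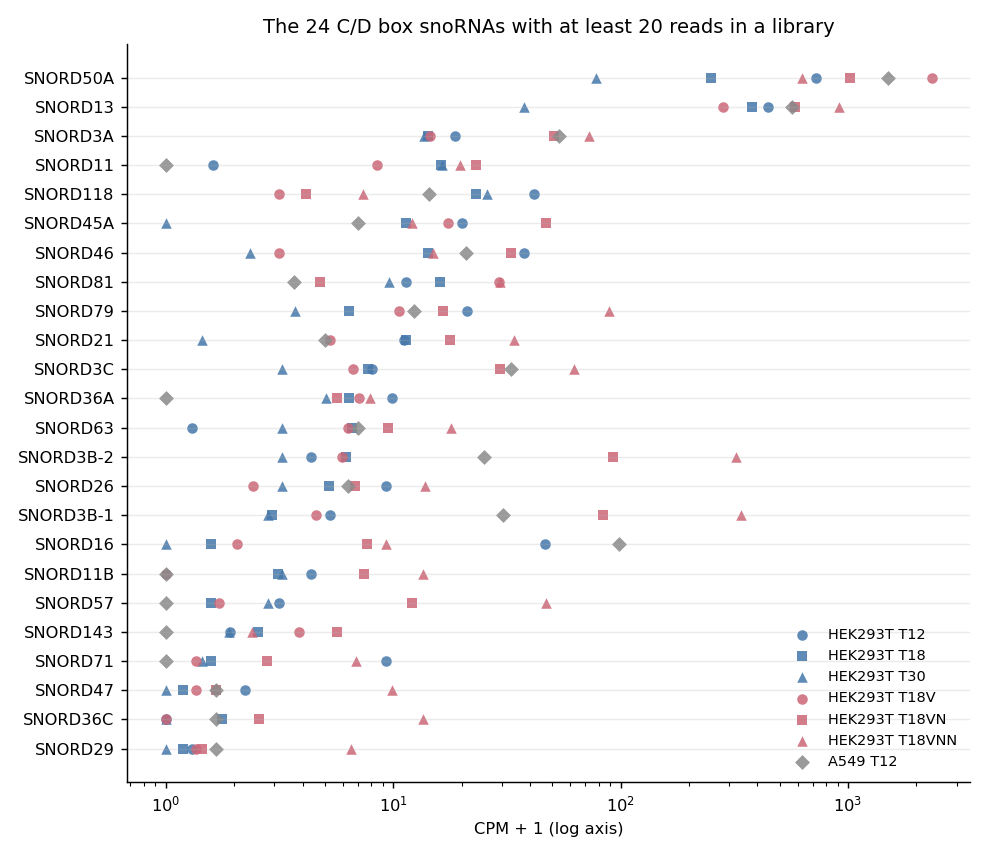
CPM plus 1 (log axis) of the 24 C/D box snoRNAs with at least 20 reads in any library, 1 point per library, ordered by the median over the 6 HEK293T libraries. Blue points are unanchored and red points anchored HEK293T primers, and grey diamonds are A549 T12; the T18VNN triangle is furthest right among HEK293T points for all 4 SNORD3 genes, and the HEK293T T12 circle is furthest right for SNORD16.

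By position, 98 of the 178 members outside the repeated arrays lay over an exon of some annotated GENCODE transcript, often a retained-intron form of the host, 73 lay in introns only and 7 had no host. Of these, 66, 44 and 6 had a read, and they held 22976, 1221 and 15570 reads. SNORD50A alone accounts for most reads of the first class and SNORD13 and U3 for most of the last. Where an exon of another transcript runs over a member, its reads and those of the host cannot be told apart, and no use of strand is stated for the counts.

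The repeated arrays were nearly empty. SNORD115 (48 members) and SNORD116 (30 members) lie in tandem in the imprinted region of chromosome 15 whose paternal loss causes Prader-Willi syndrome, and SNORD113 (9 members) and SNORD114 (31 members) in the imprinted region of chromosome 14 beside MEG3. SNORD115, SNORD113 and SNORD114 had 0 reads in all 7 libraries. SNORD116 had 2 reads, 1 on SNORD116-10 with T18 in HEK293T and 1 on SNORD116-5 in A549. In A549 a count of 0 allows up to 2.00 CPM per member. Some array members are identical, with 37 distinct sequences among 43 matched SNORD115 members and 27 among 30 of SNORD116. How reads with several matches were counted is not given in the sources used here, and whether this lowered the array counts was not tested. Of the matched array members, 49.5% hold a run of 5 or more A. Outside the arrays it was 10% of members with a read and 2.86% of those without. Apart from SNORD113-8, the array members with such a run all belong to SNORD115 and SNORD116. Many of these are copies of near-identical sequence, so they are not independent.

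A549 differed from HEK293T at the same chromosome 15 locus in genes named after their values were seen. SNORD64 (chr15:25230247-25230313, plus strand, hg19) had 10 reads in A549, or 6.67 CPM (95% Wilson interval 3.63 to 12.3), and SNORD107 (chr15:25227141-25227215, plus strand) had 9, or 6.01 CPM (3.16 to 11.4). Both had 0 reads among 21570784 gene reads of HEK293T. Set against 3 reads in the HEK293T T12 library, SNORD64 was at least 7.27-fold higher and SNORD107 at least 6.54-fold. SNRPN, the protein-coding gene at the head of the locus, had 3 reads with T12 and 0 with the other 5 primers in HEK293T, against 410 in A549, and the noncoding IPW had 64 in A549 and 0 in HEK293T. PWAR5, which spans SNORD64 in GENCODE, had 28 reads in A549 and 0 in HEK293T. Whether the reads on SNORD64 came from the snoRNA or from RNA of PWAR5 was not tested. MEG3, beside the chromosome 14 arrays, had 32 reads in A549 and 0 in HEK293T. SNORD108, SNORD109A and SNORD109B of the chromosome 15 locus had 0 reads throughout.

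With T12, 16 members had at least 20 reads in A549 or HEK293T. On the log2(CPM + 1) scale 6 of them passed 2-fold upward in A549 and 6 downward, beside 31.0% of 10144 genes higher and 29.2% lower. The median log2 ratio of the 16 was -0.66, and that of all genes compared was 0.02. There was 1 library per cell line, from different replicate numbers, so there is no replicate check and no test.

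The higher members were the 4 read U3 genes, SNORD16 and SNORD50A. By CPM, SNORD3B-2 was 7.13-fold higher, SNORD3B-1 6.85-fold, SNORD3C 4.55-fold and SNORD3A 2.97-fold. SNORD16 was 2.14-fold and SNORD50A 2.08-fold higher. For all of these but SNORD16 the A549 level lay within the range of the 6 HEK293T primers. SNORD16 was the 1 of 16 members above all 6 HEK293T libraries, beside 33.8% of all genes compared.

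Among the lower members, SNORD36A and SNORD71 had 0 reads in A549. The HEK293T T12 level of SNORD36A was 4.44-fold the A549 floor of 3 reads, and that of SNORD71 was 4.13-fold. These folds take the HEK293T T12 counts as they stand and leave out their counting spread. SNORD81 was 3.90-fold lower, SNORD45A 3.16-fold, SNORD118 3.05-fold and SNORD21 2.52-fold. By counts as they stand, SNORD36A, SNORD71 and SNORD81 lay below all 6 HEK293T libraries, 3 of 16 beside 28.8% of all genes compared. For SNORD71 that order is not resolved, since its levels with T18, T30, T18V and T18VN, 0.356 to 1.79 CPM, are under the 2.00 CPM that a count of 0 allows in A549. SNORD81 rests on 4 reads in A549. SNORD13 differed by 1.28-fold. With TMM scaling, which put the median of all genes at -0.24, 4 members were higher and 8 lower.

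**Figure D5:**
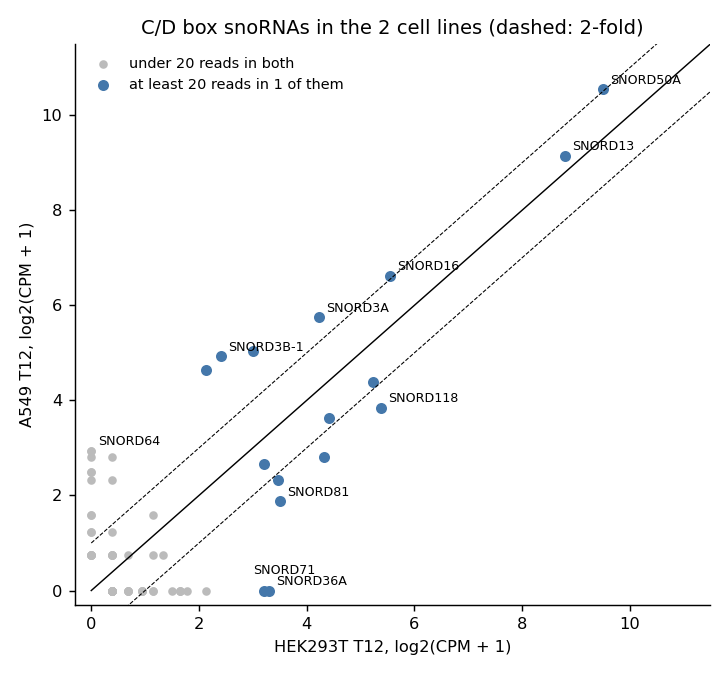
Log2(CPM + 1) of C/D box snoRNAs in A549 T12 (vertical axis) against HEK293T T12 (horizontal axis), 1 point per member with a read in either library. The solid line marks equal levels and the dashed lines a 2-fold difference; the SNORD3 genes lie above the upper dashed line, and SNORD36A and SNORD71 lie at 0 in A549.

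The mRNAs for the particle's proteins and assembly factors did not pass the test between primer classes. edgeR tested all 14 genes of that list and called 0 (3 had an unadjusted p under 0.05), and DESeq2 called 0 as well. Over all genes edgeR called 1.35%, and 1694 of 10887 had an unadjusted p under 0.05. DESeq2 called 281 higher and 300 lower of 12555. The median log2 fold change of the 14 by edgeR was -0.05, beside -0.00 over all genes tested. The methyltransferase FBL had 0.92 (adjusted p = 0.217, edgeR) and the U3-specific protein RRP9 had -1.07 (adjusted p = 0.168).

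In A549 against HEK293T with T12, 3 of the 14 were higher by 2-fold or more and 7 were lower by as much, beside 31.0% and 29.2% of all genes, with a median log2 ratio of -0.81. The assembly ATPase RUVBL1 stood at -3.15, the nucleolar chaperone NOLC1 at -2.97 and NOP56 at -2.36, while the assembly factor ZNHIT6 stood at 2.81 on 9 reads in HEK293T and 38 in A549.

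Of 9 genes for trimming and decay of snoRNA 3′ ends, edgeR tested all 9 between primer classes and called 0 (3 had an unadjusted p under 0.05), beside the same 1.35% and 1694 of 10887 over all genes, with a median log2 fold change of 0.68. DESeq2 called ZFC3H1 higher (adjusted p = 0.0408), beside 281 genes called higher and 300 lower of 12555 with that tool. ZFC3H1, of the nuclear exosome targeting complex for polyadenylated RNA, had 2.11 (SE 0.59, adjusted p = 0.109, edgeR), and TOE1, a deadenylase that trims small nuclear RNAs, had -1.30 (adjusted p = 0.152). In A549, 1 of the 7 with enough reads was at least 2-fold higher and 3 were lower, beside 31.0% and 29.2% of all genes, among them the exosome nuclease DIS3 at -2.24.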

How the data were processed

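The authors deposited counts of reads for each RefSeq transcript, with FPM (a signal scaled to the library total) and FPKM (also divided by length) derived from the same counts per the file headers. The submitters' processing notes name FastQC 0.11.8, cutadapt 2.10, Trimmomatic 0.39, HISAT2 2.2.1, SAMtools and hg19; the counter, its strand setting and what it did with a read that matches several places are not given in the sources used here, nor is a sequencing batch. Coordinates are hg19 as deposited, counted from 1.

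Of 61177 entries, 60133 (98.3%) matched a symbol of the RefSeq gene table (GRCh38.p14), and 1 entry per gene gave 26625 genes. Sequences and exon context come from GENCODE release 29 (GRCh38) by symbol, so an end may differ by a base from the deposited entry. A host named here is the most-read deposited entry on the same strand that spans the member, except where GENCODE is named. Members were sorted by position with hosts from both sources. The deposited coverage profiles and poly(T) lengths were not used.

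Anchored primers were tested against unanchored ones (3 HEK293T libraries each) on the deposited counts with edgeR 4.0.16 (filterByExpr, TMM, quasi-likelihood F-test, Benjamini-Hochberg at 0.05 over all genes), tested on simulated data. The standard error is the log2 fold change over the square root of F. DESeq2, other scaling, no filter and leave-one-out fits were alternatives. A549 was set against HEK293T T12 at 2-fold on log2(CPM + 1) where the higher library had 20 or more reads. FPKM served only to compare a member with its host per length.

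Members and lists were chosen with earlier results of these data known. The named members were those with an adjusted p under 0.05, the 12 highest by median HEK293T CPM, the 5 highest and 5 lowest A549 ratios, the processing snoRNAs, and the 2 array members with most reads. The host of 1 named member is not reported here.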

Additional observations from a re-analysis of the deposited data

Results flagged for a closer look

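Over the 6 HEK293T libraries, 19 values (the named members and summed levels) were examined for a library standing far from the others by Dixon's criterion, and 5 did so. Chance flags about 1 in 20 such groups, a rate that does not hold here, since most of these members were named for their values in the same libraries. In 4 of them T18VNN was the high library. The U3 genes together reached 793 CPM there, with 254 CPM in the next library. SNORD3B-1 reached 338 CPM with 83.0 next, SNORD3B-2 322 CPM with 92.0 next, and SNORD79 88.1 CPM with 20.2 next. These values are not independent, since the U3 sum holds both SNORD3B copies. The fifth was SNORD16 with T12, at 45.6 CPM against 8.34 in the next library; the A549 library made with the same primer stood at 97.4 CPM. Each primer is 1 library, so primer and library cannot be told apart.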

How the results depend on the processing

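No paired analysis was possible because the HEK293T T12 counts are replicate 1, the A549 T12 counts are replicate 2 and the other primers carry no number. Genes called higher with anchored primers, 85 in edgeR, were 281 with DESeq2, 283 with no filter on low counts and 19 to 56 leaving out each library; those called lower, 62, were 300, 273 and 27 to 66. C/D box snoRNAs called higher, 2, were 4 with DESeq2 (the SNORD3B copies, SNORD3C and SNORD57) and 5 with no filter (those and SNORD50A). They were 0 to 2 leaving out each library. The 1 called lower, SNORD118, was 0 to 1 leaving out each library. A count over members that overlap no other gene used the same fit and leaves SNORD118 out by definition, since it overlaps TMEM107. The cause of the shifts with the tool, the filter and the libraries was not tested.

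Leaving out each library, the log2 fold change ran from -3.62 to -2.78 for SNORD118, from 3.80 to 6.09 for SNORD3B-1 and from 3.48 to 5.57 for SNORD3B-2; adjusted p-values under edgeR were 0.0453 to 0.0957, 0.0128 to 0.183 and 0.0128 to 0.187. SNORD50A (1.78) and SNORD3C (2.36) passed with no filter, and SNORD3C (2.35) with DESeq2. Among the named members, signs turned for 4 that did not pass the test: without T12, SNORD11 was -0.12, SNORD46 0.89, SNORD36A 0.11 and SNORD16 3.62, and without T18V SNORD46 was 0.24. Over all such fits they ran from -0.12 to 0.83, -1.23 to 0.89, -0.42 to 0.11 and -2.21 to 3.62.

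The difference in share, 0.170 percentage points, was 0.0646 over library totals (a larger denominator), 0.0726 without SNORD50A, 0.00883 without SNORD50A, SNORD13 and U3, and 0.140 to 0.202 leaving out each library. For A549, 6 higher and 6 lower became 3 and 2 at 50 reads, and 1 and 3 outside the range of all 6 HEK293T libraries. Members with at least 1 read numbered 53, 60, 39, 48, 63, 75 and 40, and with at least 10 reads 17, 20, 6, 13, 23, 26 and 12, in the order T12, T18, T30, T18V, T18VN, T18VNN and A549. At equal depth T18 fell to 20.5 and T18VN to 27.1 members. The filter on low counts left 278 of 296 members untested, of which 178 had no read in any library; whether depth or level set this was not tested.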
